A study of Sus scrofa with 12 samples.

Results

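The genes described here encode the subunits, activators, inhibitor and assembly chaperones of the proteasome, the protease that degrades ubiquitin-tagged proteins. They were taken by name: every annotated locus of the deposited pig expression table, marked as known or as a new splice form of a known gene, whose symbol was PSM followed by a letter from A to G and a number. The rule found 43 genes among 30012 loci. Of these, 12 lay on more than 1 row, and for those the row with the highest mean level was used. The 43 comprised 7 genes of the outer alpha rings of the core (PSMA1 to PSMA7), 6 of its inner beta rings (PSMB1, PSMB3, PSMB4, PSMB5, PSMB6 and PSMB7) and 2 of its inducible catalytic genes (PSMB8 and PSMB9). A further 2 were core genes of restricted tissues (PSMA8 and PSMB11). The cap gave 5 ATPase genes, 11 other subunit genes and 3 assembly chaperones, and there were 3 activator genes (PSME1, PSME2 and PSME4), 1 inhibitor (PSMF1) and 3 assembly chaperones of the core (PSMG2, PSMG3 and PSMG4). PSMB2 and PSMB10 were named only on rows marked as absent from the annotation, which the rule leaves out; PSMB10 is described beside the others because it completes the inducible set. PSMC4, PSME3 and PSMG1 were not analysed here.

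RNA was sequenced from 12 libraries, 3 in each of 4 groups. Parthenogenetic embryonic stem cell (ESC) lines 7 and 3 (ESC7 and ESC3) came from eggs activated without sperm, and ESC line 11 (ESC11) was derived after in vitro fertilisation (IVF). Each of the 3 groups is a single line, and all were grown on feeder cells in a serum-replacement medium with FGF2, activin A, and the small molecules labelled CH and IWR-1. Y-27632 was present for a day on each side of passaging. The ESCs were then sorted for the surface antigen SSEA1, to take away feeder and differentiated cells. The comparison group was fetal fibroblasts from a fetus of day 30, with RNA taken at passage 6. Whether the replicate libraries stem from separate cultures is not said in the labels. The p-values and standard errors below therefore measure only the spread of the libraries within each group, which may be technical. In ESCs against fibroblasts, the differences between the 3 ESC lines do not enter them.

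The core of the proteasome is a stack of rings in which PSMB5, PSMB6 and PSMB7 carry the cutting sites, and the alpha rings form the gate. The cap recognises ubiquitin, removes it, and unfolds the protein with a ring of ATPases before feeding it into the core. Interferon-gamma makes cells exchange the catalytic subunits for PSMB8, PSMB9 and PSMB10 and raises PSME1 and PSME2, which together form the PA28 activator. The resulting immunoproteasome is known above all for making peptides for display on MHC class I molecules. Roles named below are those known from human and mouse cells. In human ESCs, PSMD11 is known to be high and to favour the assembly of capped proteasomes.

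The authors' values are FPKM, which divide the fragments of a gene by its length and by the fragments of the library. Levels of different genes can be set side by side only roughly, since multiply mapped reads and bias correction are not described. The depth of each library is unknown, because the table holds no counts. The libraries had between 21898 and 24100 loci above 0, and their summed FPKM ran from 2375984 to 7715469. The defining markers fitted the labels. The 6 pluripotency markers summed to 2704 to 3008 FPKM in the 9 ESC libraries and to 1.30 to 1.73 FPKM in the fibroblast libraries. The 5 fibroblast markers summed to 64.9 to 105 FPKM in ESCs and to 15753 to 15916 FPKM in fibroblasts. Differences below are on the log2(FPKM + 1) scale, which understates the change of low genes, and come from one limma fit over 18278 loci with at least 1 FPKM in at least 3 libraries. A gene was called when its Benjamini-Hochberg adjusted p over all these loci was under 0.05 and its difference was at least 1 in size; "rose" and "fell" below need the adjusted p only. In bulk RNA, fewer cells of a type and less RNA per cell cannot be told apart.

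In ESCs against fibroblasts, most genes of the core and cap were higher, and PSMB8 and both genes of the PA28 activator were lower. Of the 38 genes tested, 12 were called higher, a share to be read against 28.1% of all loci called higher. One gene, PSMB8, was called lower, where 14.9% of all loci were. Without the fold minimum 32 rose, where 58.3% of all loci did, and 3 fell (PSMB8, PSME1 and PSME2), where 29.4% of all loci did. The median difference over all tested loci was itself 0.44, so a gene at 0.44 moved with the bulk of the table; 30 of the 38 genes lay above it. Every ESC library lay above every fibroblast library for 32 of the 38 genes, where 50.2% of all loci did so. Every ESC library lay below every fibroblast library for PSMB8 and PSME1, where 24.9% of all loci did so, and the groups overlapped for PSMD5, PSME2, PSME4 and PSMG2. PSMB8 passed the filter on low values only through the fibroblasts.

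**Figure D1:**
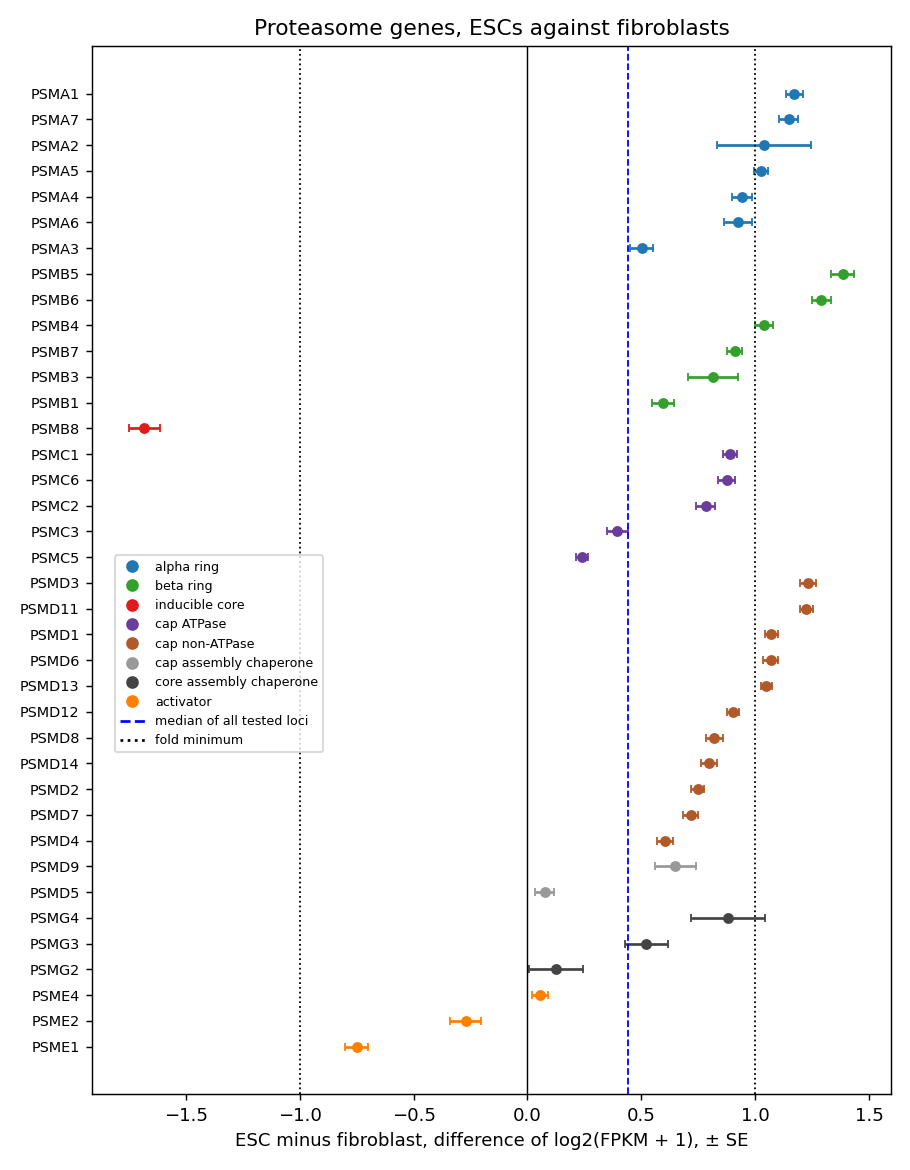
Difference in log2(FPKM + 1) between the ESC and fibroblast means for the 38 tested genes, grouped by class, with standard errors from limma; the dashed line is the median of all tested loci (0.44) and the dotted lines mark a difference of 1. Core and cap genes sit to the right, while PSMB8 (-1.68) and the activators PSME1 and PSME2 sit to the left; PSMC3, PSMC5, PSMD5, PSME4 and PSMG2 change sign under median-ratio scaling, and PSMD5, PSME4 and PSMG2 also do so under quantile normalization.

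How far the 12 calls go depended on the scaling of the libraries. Quantile normalization, which moved the median of all loci to 0.10, left 2 called higher (PSMB5 and PSMB6) and 1 lower. Median-ratio scaling moved that median to 0.07 and left 0 called higher and 2 lower (PSMB8 and PSME1), with 28 higher and 7 lower at an adjusted p under 0.05. Relative to the median of all loci the core lay at 0.58 as deposited, 0.66 after quantile normalization and 0.51 after median-ratio scaling. Differences are therefore given below also as their distance from that median.

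The 7 alpha-ring genes all rose, and 4 of them were called (PSMA1, PSMA2, PSMA5 and PSMA7). Over all loci 58.3% rose and 28.1% were called higher. PSMA1 showed the largest difference of the ring. Its locus is on chromosome 2, from 47966018 to 47981270 on the plus strand (Sscrofa10.2, here and below). PSMA1 had 195, 179 and 178 FPKM in ESC7, 183, 188 and 178 FPKM in ESC3 and 180.5, 187 and 175 FPKM in ESC11, against 77.9, 82.2 and 81.3 FPKM in fibroblasts. The libraries of the 3 lines were close together and all far above the fibroblasts. The means were 183 ± 6.22 FPKM in ESCs and 80.5 ± 2.25 FPKM in fibroblasts (SD, n = 9 and 3), a log2 difference of 1.17 ± 0.04 (SE, adjusted p = 1.84e-10). PSMA2 had the highest level of the ring and the widest spread, with 306, 292 and 356 FPKM in ESC7, 353, 283 and 357 FPKM in ESC3 and 370.4, 178 and 365 FPKM in ESC11, against 158, 170.1 and 129 FPKM in fibroblasts. Replicate 2 of ESC11 stood near the fibroblasts while the other 8 ESC libraries were far above them. The log2 difference of PSMA2 was 1.04 ± 0.21 (adjusted p = 0.000713), and it dropped under the fold minimum without ESC11 replicate 1 (0.98), ESC11 replicate 3 (0.98) or fibroblast replicate 3 (0.92). PSMA4 was the least abundant ring gene in both cell types, with 41.96 ± 1.997 FPKM in ESCs and 21.4 ± 0.4003 FPKM in fibroblasts. PSMA3 had the smallest difference, 0.50 ± 0.05, close to the median of all loci.

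The 6 beta-ring genes also all rose, and 3 of them were called: PSMB4, which carries no cutting site, and the catalytic genes PSMB5 and PSMB6. The shares to set beside this are again 58.3% of all loci that rose and 28.1% called higher. PSMB5, which carries the chymotrypsin-like site, lies on chromosome 7 from 81330014 to 81337082 on the plus strand. PSMB5 had 200.1, 177 and 169.6 FPKM in ESC7, 176, 179 and 172 FPKM in ESC3 and 184, 183 and 183 FPKM in ESC11, against 65.2, 66.96 and 73.6 FPKM in fibroblasts. No ESC library came near the fibroblasts. Its log2 difference of 1.38 ± 0.05 (adjusted p = 6.59e-10) was the largest rise among the 38 genes and lay 0.94 above the median of all loci. PSMB6, which carries the caspase-like site, lies on chromosome 12 from 54317037 to 54319097 on the minus strand. PSMB6 had 227, 197 and 198 FPKM in ESC7, 199.7, 199 and 202 FPKM in ESC3 and 197, 202 and 198 FPKM in ESC11, against 80.7, 80.9 and 84.7 FPKM in fibroblasts. Again the 2 cell types were wide apart, and the first ESC7 library was the highest for both PSMB5 and PSMB6. The log2 difference of PSMB6 was 1.29 ± 0.04 (adjusted p = 2.51e-10). PSMB7, which carries the trypsin-like site, lies on chromosome 1 from 298943393 to 299006601 on the minus strand and had 187, 177 and 177 FPKM in ESC7, 183, 187 and 185 FPKM in ESC3 and 188, 185 and 176 FPKM in ESC11, against 96.9, 93.3 and 101 FPKM in fibroblasts. Its groups did not overlap, and its log2 difference of 0.91 ± 0.03 (adjusted p = 5.42e-10) fell short of the fold minimum. Among the non-catalytic genes, PSMB4 averaged 245 ± 9.49 FPKM in ESCs and 119 ± 3.09 FPKM in fibroblasts, a difference of 1.04 ± 0.04. PSMB1 had the smallest difference of the ring, 0.60 ± 0.05, and PSMB3 stood between them at 0.81 ± 0.11. Another PSMB3 row, marked as absent from the annotation and so left out by the rule, was also high. It had 134 to 177 FPKM in ESC libraries and 80.1 to 92.5 FPKM in fibroblast libraries. Summed over its 13 tested alpha-ring and beta-ring genes, the core reached 2536 ± 76.6 FPKM in ESCs and 1272 ± 26.7 FPKM in fibroblasts (SD, n = 9 and 3). Core genes had a median difference of 1.02, which is 0.58 above the median of all loci, and in single ESC libraries this distance ran from 0.49 to 0.67.

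**Figure D2:**
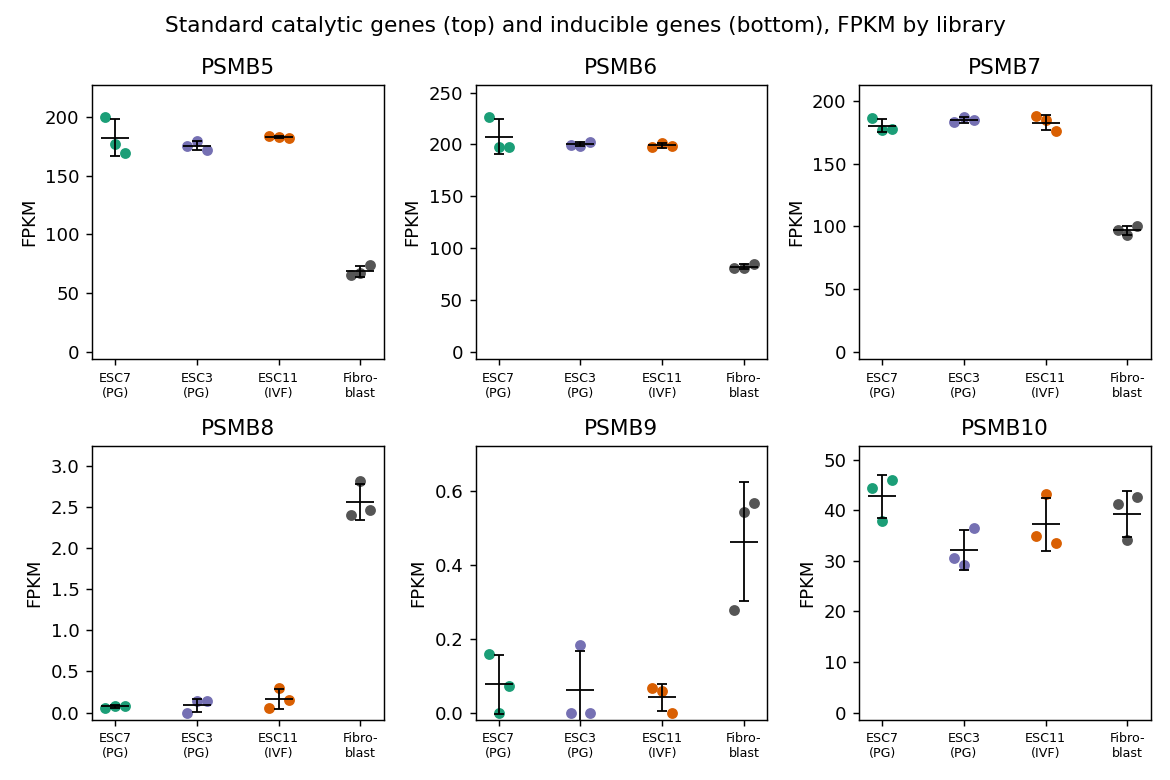
FPKM by library for the standard catalytic genes PSMB5, PSMB6 and PSMB7 (top) and their inducible replacements PSMB8, PSMB9 and PSMB10 (bottom), with the mean and SD of each group of 3; each panel has its own scale. The standard genes are near 170 to 227 FPKM in ESCs and 65.2 to 101 FPKM in fibroblasts, PSMB8 and PSMB9 are low in both cell types and, on the rows used, lowest in ESCs, and PSMB10 overlaps between the groups.

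Of the inducible genes, PSMB8 was lower in ESCs, PSMB9 was close to 0 in both cell types and PSMB10 overlapped between them. PSMB8, which replaces PSMB5, lies in the MHC region of chromosome 7 from 29425067 to 29428872 on the minus strand. PSMB8 had 0.0583, 0.0816 and 0.0822 FPKM in ESC7, 0, 0.137 and 0.135 FPKM in ESC3 and 0.0505, 0.293 and 0.157 FPKM in ESC11, against 2.402, 2.81 and 2.46 FPKM in fibroblasts. All 9 ESC libraries were close to 0 and the 3 fibroblast libraries were low but clear of them. The log2 difference was -1.68 ± 0.07 (adjusted p = 1.75e-09), and it shrank to -0.56, under the fold minimum, with a pseudocount of 5. PSMB8 was tested only because it passed the filter in fibroblasts, so this p-value and the call lend no independent support. PSMB9, which replaces PSMB6, was read on the row named LMP2 whose description gives the symbol PSMB9, on chromosome 7 from 29283699 to 29288735 on the plus strand. PSMB9 had 0.1596, 0 and 0.0712 FPKM in ESC7, 0, 0.184 and 0 FPKM in ESC3 and 0.0675, 0.0579 and 0 FPKM in ESC11, against 0.278, 0.544 and 0.569 FPKM in fibroblasts. On this row the fibroblast libraries were the 3 highest, and 4 of the 9 ESC libraries were listed at 0; no library reached the filter, so PSMB9 was not tested. PSMB10, which replaces PSMB7, lay on an unplaced scaffold (GL896204.1, from 76684 to 79256). PSMB10 had 44.5, 37.9 and 45.9 FPKM in ESC7, 30.6, 29.2 and 36.6 FPKM in ESC3 and 34.9, 43.2 and 33.5 FPKM in ESC11, against 41.3, 34.1 and 42.5 FPKM in fibroblasts. It was far more abundant than the other inducible genes and its groups overlapped, with a log2 difference of -0.08 ± 0.10 (adjusted p = 0.473); the difference was -0.31 (adjusted p = 0.0132) after quantile normalization and -0.51 (adjusted p = 0.000539) after median-ratio scaling.

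Set against their standard counterparts, all 3 inducible genes took a smaller place in ESCs on the rows used. PSMB8 stood at 0 to 0.1601% of PSMB5 in ESC libraries and at 3.34 to 4.19% in fibroblast libraries. PSMB9 stood at 0 to 0.0926% of PSMB6 in ESC libraries and at 0.345 to 0.673% in fibroblast libraries. PSMB10 stood at 15.6 to 25.9% of PSMB7 in ESC libraries and at 36.5 to 42.7% in fibroblast libraries. None of these 3 percentages overlapped between the cell types. How often a ratio of any 2 loci separates the cell types in this way was not counted. Of single loci, 50.2% lay wholly above and 24.9% wholly below in ESCs. Each percentage compares levels per length within a library, so it does not depend on a common scaling factor. On the log2(FPKM + 1) scale the mean of the 3 inducible genes lay below that of the 3 standard genes by a gap of -5.74 ± 0.09 in ESCs and -3.80 ± 0.03 in fibroblasts (SD, n = 9 and 3). The difference of these gaps was -1.93, and -3.11 with a pseudocount of 0.1, which weighs the low genes more. The percentages and the gap also include the rise of the standard genes in ESCs. PSMB5, PSMB6 and PSMB7 rose by 1.38, 1.29 and 0.91, while PSMB10 itself differed by only -0.08 and overlapped between the cell types. Between the parthenogenetic lines and ESC11 the gap differed by -0.02, less than the spread between libraries.

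Rows named PSMB8, LMP2 and TAP each occurred more than once within a short stretch of chromosome 7. A second PSMB8 row, from 29269958 to 29273035 on chromosome 7, was listed at 0 in all 12 libraries. A second LMP2 row, from 29437937 to 29444130, is described in words as the same subunit and had the higher mean over the 12 libraries of the pair. It had 0.713, 0.275 and 0.201 FPKM in ESC7, 0.0764, 0 and 0.0831 FPKM in ESC3 and 0.186, 0.4097 and 0.1301 FPKM in ESC11, against 0.311, 0.694 and 0.388 FPKM in fibroblasts. On this row the cell types overlapped, and an ESC7 library was the highest of all. As a share of PSMB6 it stood at 0 to 0.315% in ESC libraries and at 0.385 to 0.858% in fibroblast libraries, and with it in place of the PSMB9 row the difference of the gaps was -1.87, or -2.80 with a pseudocount of 0.1, an alternative chosen after seeing the data. How the authors' counting divided reads between near-identical copies is not given in the sources used here, so the levels of PSMB8 and PSMB9 are uncertain. Rows named TAP, for the transporter that carries proteasome products into the endoplasmic reticulum, flank PSMB8 on both sides. The TAP row from 29429375 to 29438742 had between 0.533 and 1.31 FPKM in ESC libraries and between 3.07 and 3.76 FPKM in fibroblast libraries, the same direction as PSMB8. The TAP row from 29412165 to 29423473 had between 30.6 and 71.2 FPKM in ESC libraries and between 0.516 and 0.802 FPKM in fibroblast libraries, the opposite direction. The 8 blood and immune markers, of cells that carry much immunoproteasome, summed to 4.76 to 8.48 FPKM in ESCs and to 5.89 to 6.84 FPKM in fibroblasts. Of them, 1 was at 0 in every fibroblast library. These sums join markers that went opposite ways. Only 2 of the 8 were tested, with 1 called higher and 1 lower, where 28.1% and 14.9% of all loci were. The 2 endothelial markers summed to 0.740 to 1.26 FPKM in ESCs and to 2.35 to 3.24 FPKM in fibroblasts.

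Most genes of the cap were also higher in ESCs. Of its 18 tested genes 17 rose and 5 were called higher (PSMD1, PSMD3, PSMD6, PSMD11 and PSMD13), all of them subunits other than ATPases. Over all loci 58.3% rose and 28.1% were called higher, so the share of cap genes called was close to that of the table. PSMD3, a subunit of the lid, lies on chromosome 12 from 22744488 to 22818810 on the minus strand. PSMD3 had 150.0, 147 and 157 FPKM in ESC7, 164, 160.3 and 154 FPKM in ESC3 and 141, 155 and 148 FPKM in ESC11, against 63.8, 65.02 and 64.5 FPKM in fibroblasts. The lines lay close together and clear of the fibroblasts, with a log2 difference of 1.23 ± 0.04 (adjusted p = 8.38e-11). PSMD11, also a lid subunit, lies on chromosome 12 from 44257610 to 44288037 on the minus strand. PSMD11 had 126, 129.9 and 137 FPKM in ESC7, 144, 141 and 139 FPKM in ESC3 and 139, 140.1 and 143 FPKM in ESC11, against 58.1, 57.7 and 59.1 FPKM in fibroblasts. The fibroblast libraries differed among themselves by little and all ESC libraries were far above them. The log2 difference of PSMD11 was 1.22 ± 0.03 (adjusted p = 1.85e-11). PSMD1, a large scaffold of the base, averaged 104 ± 5.52 FPKM in ESCs and 48.98 ± 1.08 FPKM in fibroblasts, a difference of 1.07 ± 0.03. PSMD6 and PSMD13, both of the lid, had differences of 1.07 ± 0.03 and 1.05 ± 0.03, and PSMD13 came to 0.999 with a pseudocount of 5.

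Among the other cap genes, PSMD2, the second large scaffold of the base, had the highest level, 341 ± 8.24 FPKM in ESCs and 203 ± 5.67 FPKM in fibroblasts (SD, n = 9 and 3), and a difference of 0.75 ± 0.03. PSMD14, the deubiquitinase of the lid, had a difference of 0.80 ± 0.03, and PSMD7, its partner, one of 0.72 ± 0.03. PSMD4, a ubiquitin receptor, had the smallest difference of the 11 non-ATPase subunits, 0.60 ± 0.04, and PSMD8 and PSMD12 lay between at 0.82 ± 0.04 and 0.90 ± 0.03. The 5 tested ATPase genes were uneven. PSMC1, PSMC2 and PSMC6 rose by 0.89, 0.78 and 0.87 on the log2 scale, above the median of all loci. PSMC3 at 0.39 ± 0.05 and PSMC5 at 0.24 ± 0.03 lay below that median, and under median-ratio scaling they turned to -0.04 and -0.19. Over the 18 genes the median difference was 0.81, which is 0.37 above the median of all loci, and in single ESC libraries this distance ran from 0.30 to 0.52. Summed, the cap reached 2029 ± 51.01 FPKM in ESCs and 1126 ± 21.6 FPKM in fibroblasts (SD, n = 9 and 3).

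The assembly chaperones were uneven: 3 of the 5 tested rose, where 58.3% of all loci did, and none was called. PSMD9, a chaperone of the cap base, rose by 0.65 ± 0.09. PSMD5, another, had 43.4 ± 1.84 FPKM in ESCs and 41.1 ± 1.42 FPKM in fibroblasts and a difference of 0.08 ± 0.04 (adjusted p = 0.114), which turned to -0.15 after quantile normalization and -0.36 after median-ratio scaling. A second PSMD5 row close by on chromosome 1 had between 25.7 and 29.3 FPKM in ESCs and between 24.2 and 29.5 FPKM in fibroblasts. Among chaperones of the core, PSMG4 rose by 0.88 ± 0.16 (adjusted p = 0.000441). PSMG4 had 84.2, 71.02 and 74.2 FPKM in ESC7, 62.4, 74.7 and 77.1 FPKM in ESC3 and 71.8, 60.1 and 66.1 FPKM in ESC11, against 41.3, 26.1 and 51.2 FPKM in fibroblasts. The fibroblast libraries were scattered, all below the ESCs, and without fibroblast replicate 3 the difference was 1.09 and PSMG4 was called. PSMG3 rose by 0.52 ± 0.09, near the median of all loci. PSMG2 had a difference of 0.13 ± 0.12 (adjusted p = 0.33), which turned to -0.13 after quantile normalization and -0.30 after median-ratio scaling.

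**Figure D3:**
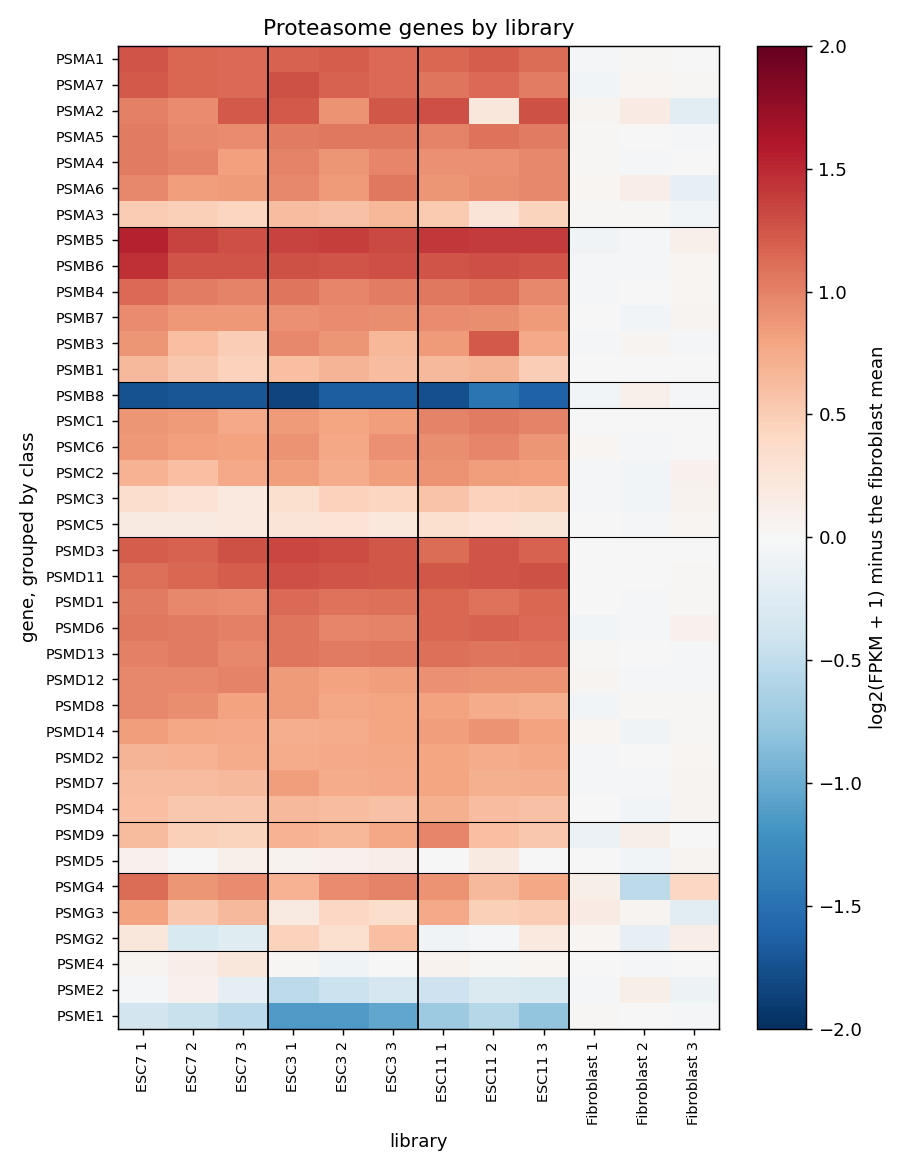
Each library's log2(FPKM + 1) minus the fibroblast mean for the 38 tested genes, by class, with the ESC7, ESC3 and ESC11 libraries left of the fibroblasts. Core genes and most cap genes are red in all 9 ESC libraries, while PSMC5 (0.24) is pale and PSMD5 (0.08) is close to white. PSMB8 is deep blue in all 9 ESC libraries, PSMA2 in ESC11 replicate 2 stands apart from the other ESC libraries, and PSME1 is bluest in ESC3. PSMC3, PSMC5, PSMD5, PSME4 and PSMG2 would change sign under median-ratio scaling.

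None of the 3 activator genes rose, where 58.3% of all loci did, and PSME1 and PSME2 fell, where 29.4% of all loci did. PSME1 and PSME2, the subunits of PA28, lie 2936 bases apart on chromosome 7, PSME1 from 80433126 to 80435858 on the minus strand and PSME2 from 80424993 to 80430189 on the plus strand. PSME1 had 41.3, 38.96 and 36.4 FPKM in ESC7, 23.8, 23.9 and 25.4 FPKM in ESC3 and 31.7, 35.8 and 30.5 FPKM in ESC11, against 54.6, 53.3 and 52.5 FPKM in fibroblasts. All ESC libraries were below all fibroblast libraries, ESC3 lowest and ESC7 highest of the lines. The log2 difference of PSME1 was -0.75 ± 0.05 (adjusted p = 1.21e-07), which lies 1.19 below the median of all loci and passed the fold minimum under median-ratio scaling (-1.18). PSME2 had 25.5, 27.4 and 22.4 FPKM in ESC7, 17.6, 18.9 and 20.3 FPKM in ESC3 and 19.1, 21.03 and 20.6 FPKM in ESC11, against 25.5, 28.2 and 23.96 FPKM in fibroblasts. ESC7 overlapped the fibroblasts, and ESC3 and ESC11 lay below them. PSME2 fell by 0.27 on the log2 scale (SE 0.07, adjusted p = 0.00341), and the adjusted p was 0.454 after scaling to the same summed FPKM. PSME4, a large activator of its own kind, had 35.9 ± 2.21 FPKM in ESCs and 34.4 ± 0.452 FPKM in fibroblasts and a difference of 0.06 ± 0.04 (adjusted p = 0.165), which turned to -0.16 after quantile normalization and -0.38 after median-ratio scaling.

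The 2 genes of PA28 did not keep the same ratio. PSME1 stood at 1.25 to 1.703 times PSME2 in ESC libraries and at 1.89 to 2.19 times in fibroblast libraries, without overlap. How often other ratios of 2 loci separate the cell types was not counted. Set against the core gene PSMA7, PSME1 stood at 8.69 to 15.6% in ESC libraries and at 45.9 to 50.5% in fibroblast libraries. Summed over the 3 activator genes, the level was 89.3 ± 10.96 FPKM in ESCs and 114 ± 2.34 FPKM in fibroblasts (SD, n = 9 and 3). The median of the 3 differences lay 0.71 below the median of all loci, and in single ESC libraries this distance ran from -0.95 to -0.35.

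**Figure D4:**
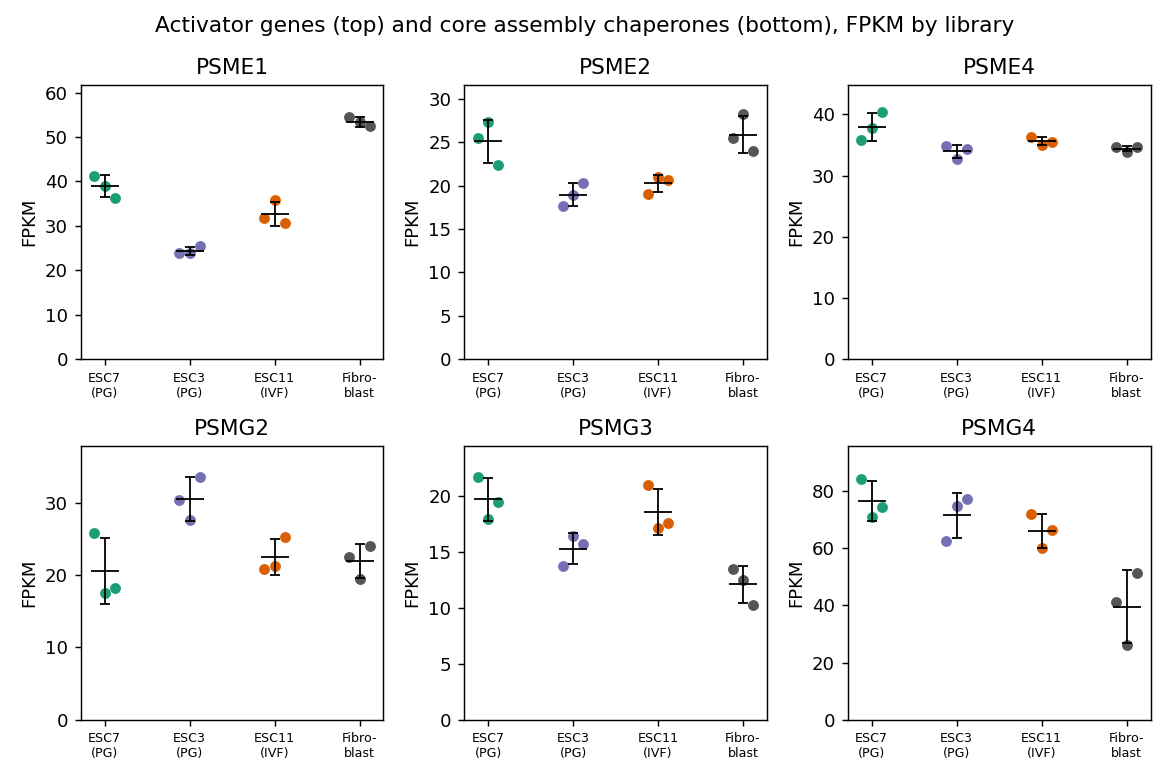
FPKM by library for the activator genes PSME1, PSME2 and PSME4 (top) and the core assembly chaperones PSMG2, PSMG3 and PSMG4 (bottom), with the mean and SD of each group of 3; every axis starts at 0. PSME1 is lowest in ESC3 (23.8 to 25.4 FPKM) and highest in fibroblasts (52.5 to 54.6 FPKM), while PSME4 and PSMG2 overlap between ESCs and fibroblasts and change sign under quantile normalization and median-ratio scaling.

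Each line on its own gave a like picture against the same 3 fibroblast libraries, which the comparisons share. In ESC7, 10 genes were called higher (29.2% of all loci were) and 1 lower (14.3% of all loci). In ESC3, 12 were called higher (28.6% of all loci) and 2 lower, PSMB8 and PSME1 (15.5% of all loci). In ESC11, 12 were called higher (27.4% of all loci) and 1 lower (15.5% of all loci). PSMB8 differed by -1.73 in ESC7, -1.71 in ESC3 and -1.61 in ESC11 and is among the genes called lower in each line. It passed the filter only through the shared fibroblast libraries, so these calls lend no independent support. PSME1 differed by -0.45 in ESC7, -1.10 in ESC3 and -0.70 in ESC11.

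Between the parthenogenetic lines and ESC11, no proteasome gene was called. With limma 0 of the 38 passed, where 2.2% of all loci were called in either direction, and 10 had an unadjusted p under 0.05. At an adjusted p under 0.05 without a fold minimum, 3 fell and none rose (19.7% of all loci passed in either direction): the ATPase genes PSMC1 and PSMC3 and the lid gene PSMD6. PSMC1 averaged 130.3 ± 4.18 FPKM in parthenogenetic ESCs and 148 ± 2.32 FPKM in ESC11 (SD, n = 6 and 3), a difference of -0.18 ± 0.03 (adjusted p = 0.00342). PSMC3 averaged 41.2 ± 2.74 FPKM in parthenogenetic ESCs and 46.2 ± 2.08 FPKM in ESC11, a difference of -0.16 ± 0.05 (adjusted p = 0.0384). All 6 parthenogenetic libraries lay below the 3 ESC11 libraries for PSMC1, and how many of all loci separated in this way was not counted. For PSMC3 the highest parthenogenetic and the lowest ESC11 library were both at 44.6 FPKM. PSMB3 had the largest difference, -0.20 ± 0.12, but a wide spread and an adjusted p of 0.278. On the left-out PSMB3 row, ESC11 had 150, 177 and 144 FPKM and the parthenogenetic libraries had 134 to 163 FPKM. With 1 IVF line, the way the embryo was made and the line cannot be told apart. Scaling to the same summed FPKM called 37 of the genes, PSMC1 at -1.37 among them; each ESC11 library had a lower sum than every parthenogenetic library.

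Between the 2 parthenogenetic lines, ESC7 had more activator RNA than ESC3. With limma 0 of the 38 genes were called, where 3.38% of all loci were in either direction, and 12 had an unadjusted p under 0.05. Without a fold minimum 9 passed an adjusted p under 0.05, where 39.9% of all loci did. All 3 activator genes were among the 5 that rose in ESC7, where 22.9% of all loci did. The other 4 fell, where 17.1% of all loci did. PSME1 averaged 38.9 ± 2.48 FPKM in ESC7 and 24.4 ± 0.901 FPKM in ESC3 (SD, n = 3 each), a difference of 0.65 ± 0.06 (adjusted p = 2.64e-05). PSME2 averaged 25.1 ± 2.496 FPKM in ESC7 and 18.9 ± 1.32 FPKM in ESC3, a difference of 0.39 ± 0.08 (adjusted p = 0.00435). The libraries of the lines did not overlap for either gene. PSME4 differed by 0.16 ± 0.04 (adjusted p = 0.0168), and PSMB10 by 0.40 ± 0.13 (adjusted p = 0.0281). PSMG2 fell in ESC7, with 20.5 ± 4.58 FPKM in ESC7 and 30.5 ± 2.98 FPKM in ESC3, a difference of -0.57 ± 0.14 (adjusted p = 0.0106). The lines did not overlap for PSMG2 either, and how many of all loci separated these lines in this way was not counted. After scaling to the same summed FPKM the adjusted p was 0.0947 for PSME1, 0.283 for PSME2 and 0.727 for PSMG2. Of the 6 pluripotency markers 4 were lower in ESC7 at an adjusted p under 0.05 (NANOG, SOX2, LIN28A and DNMT3B) and 1 was higher (EPCAM). NANOG had the largest difference of the 6, with 80.4 ± 2.98 FPKM in ESC7 and 107 ± 2.85 FPKM in ESC3, and EPCAM differed by 0.19; the part of these markers in the results was not tested. Against ESC11, 4 genes passed an adjusted p under 0.05 in ESC3 (23.0% of all loci did) and 9 in ESC7 (30.9% of all loci did).

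The order of the genes by level was nearly the same in all groups. Over the 38 tested genes Spearman's rho of the mean levels was 0.947 between ESCs and fibroblasts and 0.993 to 0.994 between the lines; the genes share libraries and are not independent replicates. PSMD2 led in every group and PSMB8 was last. Within the core, the highest gene stood 7.58 times above the lowest in ESCs and 7.12 times in fibroblasts, PSMA2 and PSMA4 in both. Each of these subunits is built into the core in the same number. Whether this range of levels reflects RNA amounts or the way rows were counted was not tested.

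The 5 genes below the filter were PSMB9, given above, and 4 others. PSMA8, a core gene of the testis, was listed at 0 in 11 libraries and at 0.107 FPKM in 1 ESC11 library. PSMB11, the catalytic gene of the thymus cortex, lies 19322 bases from PSMB5 and was listed at 0 in all 12. PSMD10, a chaperone of the cap, did not exceed 0.0844 FPKM, and PSMF1, an inhibitor of the core, was listed at 0 in all 12 on both of its rows. These values describe the listed rows alone.

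Most genes that work with the proteasome rose, by less than the fold minimum. Of 16 tested partners, 13 rose and 1 fell at an adjusted p under 0.05, and 1 was called higher, where 58.3% of all loci rose, 29.4% fell and 28.1% were called higher. The called gene was ZFAND5, a ubiquitin-binding activator, with 33.4 ± 2.81 FPKM in ESCs and 15.96 ± 0.694 FPKM in fibroblasts and a difference of 1.02 ± 0.05 (adjusted p = 1.1e-08). ZFAND5 dropped to 0.99 without ESC7 replicate 3 and to 0.98 without fibroblast replicate 1. The median of the partners was 0.67, against 0.44 for all loci. POMP, which completes the maturation of the core, was the most abundant partner, with 2354 ± 490.3 FPKM in ESCs and 1446 ± 109.9 FPKM in fibroblasts and a difference of 0.67 ± 0.17 (adjusted p = 0.00426). Among the others, USP14, a deubiquitinase on the cap, had a difference of 0.91 ± 0.04, and VCP, the ATPase that pulls proteins out of complexes, one of 0.87 ± 0.03. Of the 6 genes for ubiquitin and its activating enzymes 5 rose, against the same 58.3% of all loci, and none was called in either direction; their median, 0.43, was that of the table.

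**Figure D5:**
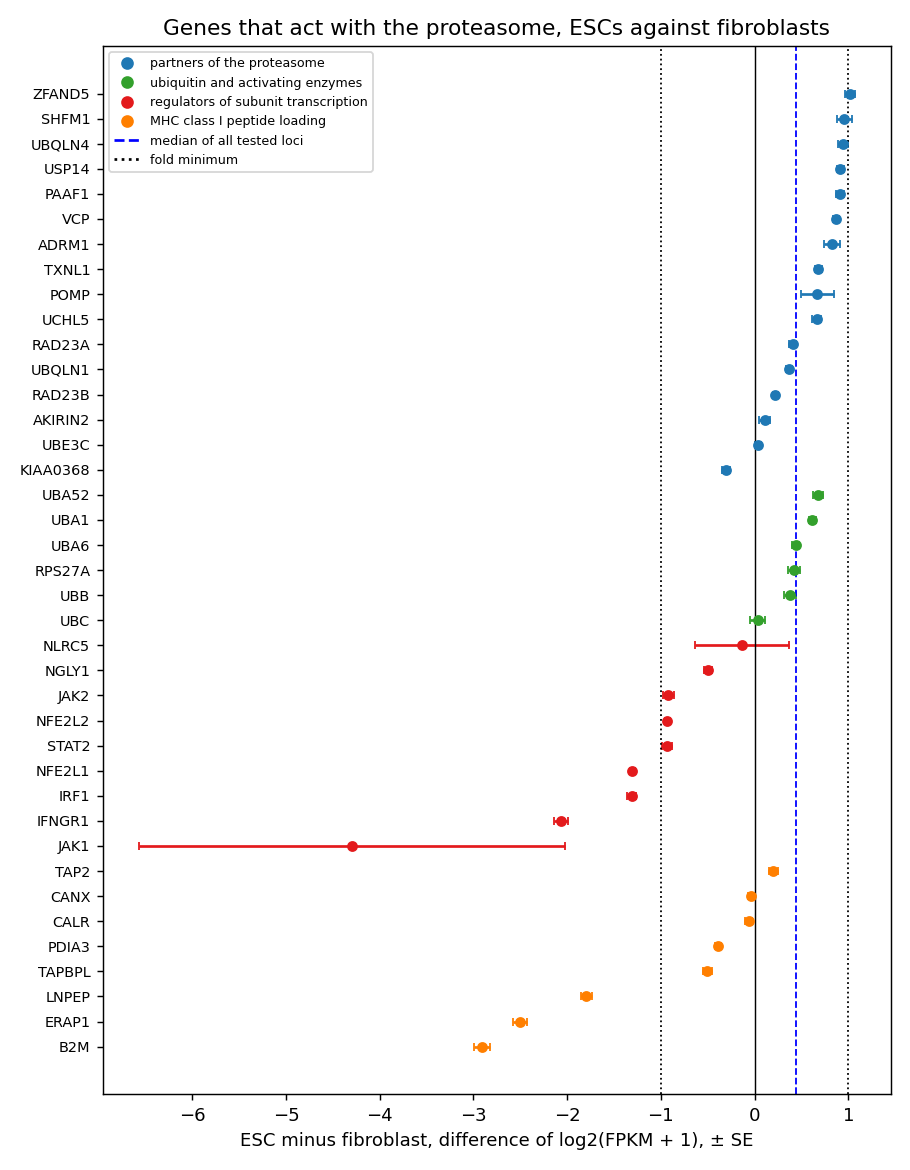
Difference in log2(FPKM + 1) between the ESC and fibroblast means for genes that act with the proteasome, by list, with standard errors from limma; dashed and dotted lines as in the plot of the subunits. Of the 16 partners 10 lie above the median of all loci (0.44) and 1, KIAA0368, lies below 0, while 3 called regulators of subunit transcription and 3 genes of MHC class I loading lie below -1; JAK1 was read on an unannotated locus of 118 bases and has a very wide error.

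The regulators of subunit transcription were mostly lower in ESCs. Of 9 tested, 7 fell and none rose, and 3 were called lower, where 29.4% of all loci fell and 14.9% were called lower; the median was -0.93. NFE2L1, known in human and mouse cells as the factor that raises subunit genes when the proteasome is blocked, had 89.4 ± 5.79 FPKM in ESCs and 222 ± 5.15 FPKM in fibroblasts and a difference of -1.30 ± 0.03 (adjusted p = 1.74e-11). The other two called genes act in interferon signalling. IFNGR1, a chain of the interferon-gamma receptor, had 2.79 ± 0.646 FPKM in ESCs and 14.7 ± 0.678 FPKM in fibroblasts and a difference of -2.07 ± 0.08 (adjusted p = 6.84e-10). IRF1, a factor known to drive the inducible subunits, had 5.25 ± 0.388 FPKM in ESCs and 14.5 ± 0.591 FPKM in fibroblasts and a difference of -1.31 ± 0.05 (adjusted p = 1.2e-09), or -0.93 with a pseudocount of 5. JAK1 and NLRC5 did not pass the test, with adjusted p = 0.0981 and 0.814.

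Of 8 tested genes that load peptides on MHC class I, 5 fell and 1 rose, and 3 were called lower, against 29.4%, 58.3% and 14.9% of all loci; the median was -0.45. B2M, the light chain of MHC class I, had 31.9 ± 10.3 FPKM in ESCs and 236 ± 16.9 FPKM in fibroblasts and a difference of -2.91 ± 0.09 (adjusted p = 1.08e-10). ERAP1, which trims peptides, had 3.05 ± 1.47 FPKM in ESCs and 20.8 ± 1.24 FPKM in fibroblasts and a difference of -2.50 ± 0.07, and LNPEP, another trimming peptidase, had 6.05 ± 1.54 FPKM in ESCs and 22.96 ± 0.362 FPKM in fibroblasts and a difference of -1.79 ± 0.06. Their adjusted p-values were 7.98e-11 and 2.22e-10. The general chaperones CALR and CANX, which also serve this pathway, had differences of -0.06 ± 0.04 and -0.04 ± 0.03. No gene of this list was called higher, but the TAP row from 29412165 to 29423473 is not in these counts. That row went the other way, with 45.8 ± 17.3 FPKM in ESCs and 0.634 ± 0.149 FPKM in fibroblasts. In ESC7 against ESC3, 4 of 9 regulators and 5 of 8 loading genes rose at an adjusted p under 0.05, 0 regulators and 1 loading gene fell, and none was called; of all loci 22.9% rose and 17.1% fell. B2M averaged 44.8 ± 5.62 FPKM in ESC7 and 24.2 ± 2.87 FPKM in ESC3, a difference of 0.86 ± 0.10 (adjusted p = 0.000126). Between the parthenogenetic lines and ESC11, 4 of 8 loading genes rose, 2 fell and 1 was called lower. Of 9 regulators 1 rose, 2 fell and none was called. Of all loci 19.7% passed the adjusted p in either direction and 2.2% were called.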

How the data were processed

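The values are FPKM computed by the authors and deposited as 1 table of 30012 loci by 12 libraries. Per the labels' protocols, polyA RNA was read as paired ends from TruSeq libraries. The tools Cufflinks 2.1.1 and STAR 2.4.0b and the build Sscrofa10.2 are listed, with no role given, per the submitters' processing notes. Strand, multiply mapped reads and bias correction are not given in the sources used here. Read depth is unknown, so no counting interval is given. limma 3.58.1 (R 4.3.3) was fitted to log2(FPKM + 1) with 4 group means over all 12 libraries and trended, moderated variances, on the 18278 loci that reached 1 FPKM in 3 or more libraries; p-values were adjusted over all of them by the Benjamini-Hochberg method. The 43 members and all gene lists were chosen with earlier results of these data known, so their counts are descriptions. Genes described in full were PSMB5 to PSMB10, PSME1, PSME2 and, in each comparison, up to 6 called genes with the largest difference, or the 3 largest where fewer than 3 were called; from each list, up to 6 called genes. Other genes named in the text were chosen after their values were seen. One gene of the list of regulators is not reported here and stays out of its counts. The fit was tested on simulated data. Alternatives covered the pseudocount, the filter, scaling, variance model, fold minimum, choice of loci and rows, the replicate number as a term, and each library left out.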

Additional observations from a re-analysis of the deposited data

Results flagged for a closer look

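The ESC lines differed from each other in 22 tests of single genes, at an adjusted p under 0.05 in limma over all loci; none of the differences reached 1 on the log2 scale. The 38 genes gave 9 in ESC7 against ESC3, 4 in ESC3 against ESC11 and 9 in ESC7 against ESC11, where 39.9%, 23.0% and 30.9% of all loci passed. In ESC7 against ESC3, the activator genes PSME1 (0.65), PSME2 (0.39) and PSME4 (0.16), the core chaperone PSMG3 (0.35) and the lid gene PSMD12 (0.14) were higher, and the chaperone PSMG2 (-0.57), the lid genes PSMD7 (-0.15) and PSMD11 (-0.11) and the scaffold gene PSMD1 (-0.13) were lower. In ESC3 against ESC11, the alpha-ring gene PSMA3 (0.21) was higher, and PSMD6 (-0.14), PSMC1 (-0.18) and PSME1 (-0.41) were lower. In ESC7 against ESC11, PSMD8 (0.14), PSME2 (0.29) and PSME1 (0.24) were higher. The ATPase genes PSMC1 (-0.18), PSMC2 (-0.17), PSMC3 (-0.23) and PSMC5 (-0.1) and the genes PSMD1 (-0.15) and PSMD11 (-0.11) were lower in ESC7 than in ESC11. PSME1 was the 1 gene that differed in all 3 pairs of lines, in the order ESC7, ESC11, ESC3 from high to low. These pairs share libraries. Groups of 3 libraries were not searched for outlying values.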

How the results depend on the processing

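The count of genes called higher in ESCs (12) was 2 with quantile normalization, 0 with median-ratio scaling, 28 with a fold minimum of 0.58 and 11 to 12 with a library left out. The count called lower (1) was 0 with a pseudocount of 5 and 0 with a filter at 5 FPKM, which leaves out PSMB8, and 2 with median-ratio scaling or a fold minimum of 0.58. Scaling to the same summed FPKM called 37 genes between parthenogenetic lines and ESC11 (0 as deposited), and a fold minimum of 0.58 called 1 between ESC7 and ESC3 (0). The core median above all loci (0.58) was 0.52 with a pseudocount of 0.1, 0.76 with 5, 0.81 with no filter, 0.66 with quantile normalization, 0.51 with median-ratio scaling, and 0.50 to 0.58 with a library left out. The cap median (0.37) was 0.31, 0.52, 0.58, 0.47 and 0.30 under the same settings, and the activator median (-0.71) was -0.48 with a pseudocount of 5, -0.48 with no filter and -0.62 with quantile normalization. The gap of inducible to standard genes (-1.93) was -3.11 with a pseudocount of 0.1, -1.40 with 5 and -1.76 with median-ratio scaling; between parthenogenetic lines and ESC11 (-0.02) it was -0.12, 0.10 with quantile normalization and 0.70 with same-sum scaling. With PSMB9 read on the second LMP2 row and a pseudocount of 0.1, chosen after seeing the data, these gaps were -2.80 and -0.27. It could not be given for Ensembl loci alone, which lack PSMB10. Signs turned for PSMC3 (-0.037), PSMC5 (-0.19), PSMD5 (-0.36), PSME4 (-0.38) and PSMG2 (-0.30) with median-ratio scaling, and for PSMD5 (-0.15), PSME4 (-0.16) and PSMG2 (-0.13) with quantile normalization. The cause of these changes was not tested. Of 1240 values of single genes under an alternative, 1194 kept direction and call, 33 lost the call, 5 gained it and 8 turned. Many alternatives change the data little, such as leaving out 1 library. Median-ratio scaling gave 13 of the lost calls, 1 of the gained and 5 of the turns. Quantile normalization gave 11 of the lost calls and 3 of the turns.

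Replicate numbers did not pair the libraries: same-numbered libraries of different groups had correlations of -0.09 to 0.09, and 2 of 12 correlated best with their own number. With the replicate block, 12 genes were called higher and 1 lower, and no call changed. Without depth, the precision of low values such as those of PSMB8 and PSMB9 is unknown.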
